A study of Mus musculus with 6 samples.

Results

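The genes described are 10 amino acid transporters of the hepatocyte plasma membrane, Slc38a2, Slc38a3, Slc38a4, Slc7a1, Slc7a2, Slc1a4, Slc1a5, Slc7a5, Slc3a2 and Slc43a1. They were chosen by name for their function, with earlier results of these data known. They are 10 of the 25230 genes in the deposited table. All 10 were among the 12506 genes tested. The tissue was liver of male C57BL/6 mice given diethylnitrosamine (DEN), a liver carcinogen, at 25 mg/kg when 14 days old, with an age label of 7 months for every sample. Regions were cut from formalin-fixed, paraffin-embedded sections with a tissue dissection instrument, and total RNA depleted of ribosomal RNA was sequenced. Normal adjacent regions (n = 3) were compared with regions labelled small tumour and glycogen-stacked (n = 3), called lesions in the text. Both groups carried the DEN treatment, so neither shows untreated liver. The series' design text calls the adjacent tissue corresponding, but no label gives the animal behind a region, and p-values measure only the spread between these 6 regions.

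Amino acids enter and leave hepatocytes through carriers that each take a class of amino acids. System N, of which SLC38A3 is the main liver carrier, moves glutamine and histidine in both directions with sodium, and system A, which includes SLC38A2 and SLC38A4, takes up small neutral amino acids such as alanine. SLC7A1 and SLC7A2 carry the cationic amino acids arginine, lysine and ornithine, SLC1A4 and SLC1A5 exchange alanine, serine, cysteine and, for SLC1A5, glutamine, and SLC7A5 exchanges large neutral amino acids such as leucine when bound to the heavy chain SLC3A2.

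The libraries held 6352898 to 6542997 counted reads in normal regions and 7294716 to 7412833 in lesions, and 16114 to 16407 genes had a count in each. Levels are given as CPM, a gene's counts scaled to a common library total with TMM factors. The groups separated on the first principal component, which held 68% of the variance. Lesion 3 stood apart from lesions 1 and 2 on the second component, with 13% of the variance, so values without it are given where a result rests on it. Summed hepatocyte markers were at 76404 to 82721 CPM in normal regions and 125906 to 156259 CPM in lesions. Albumin alone rose from 34156 ± 1593 to 82269 ± 11285 CPM (SD, n = 3 each). Of the 9 hepatocyte markers, 3 passed as higher and 3 as lower in the test described below. Over all tested genes 18.7% passed as higher and 18.4% as lower. All 11 Kupffer cell and macrophage markers fell, with sums of 993.7 to 1055 CPM in normal regions and 635.1 to 681.4 CPM in lesions. Endothelial sums overlapped (746.6 to 760.6 against 739.1 to 777.2 CPM), with 2 of 10 markers higher and 1 lower. Stellate cell sums were 350.5 to 372.4 against 393.6 to 465.6 CPM, with 3 of 10 markers higher and 2 lower. These endothelial and stellate counts are near the shares over all tested genes. Cholangiocyte marker sums were 48.4 to 50.7 against 151.4 to 179.8 CPM, with Spp1 at 17.8 CPM in normal regions and at 123 CPM in lesions, where it made up most of the sum. Only 3 of the 7 cholangiocyte markers had enough reads to be tested. Spp1 and Sox9 (9.29 and 17.9 CPM) passed as higher, 2 of 3 beside 18.7% over all tested genes. Pkhd1 was at 20.8 CPM in normal regions and 17.5 CPM in lesions and did not pass. The sums were 46.0 to 47.4 against 36.4 to 37.9 CPM for lymphocyte, 1.36 to 1.89 against 0.855 to 1.76 CPM for neutrophil and 110.9 to 120.7 against 54.4 to 63.4 CPM for erythroid markers, with Ly6g, Mpo, Hba-a2, Hbb-bs and Hbb-bt at 0. Alas2 made up most of the erythroid sum, at 111.9 CPM in normal regions and 55.1 CPM in lesions. Slc4a1, the other tested erythroid marker, was at 3.90 and 3.96 CPM. Ptprc made up most of the lymphocyte sum, at 37.5 and 27.2 CPM. Cd3e, the other tested lymphocyte marker, was at 2.21 and 2.62 CPM and did not pass. The part of these marker shifts in the transporter results was not tested, and in such bulk regions fewer cells of a type and less RNA per cell cannot be told apart.

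Of the 10 transporters, Slc7a1 and Slc1a4 rose in lesions, Slc38a4, Slc7a2 and Slc38a3 fell, and 5 did not pass the test. Both that rose were low in normal regions, at 1.82 and 3.99 CPM, and all 3 that fell were abundant, at 757.6 to 2095 CPM. The test was edgeR's quasi-likelihood test with Benjamini-Hochberg adjustment over all tested genes, with a threshold of 0.05. By it, 18.7% of all tested genes were called higher (2340 genes) and 18.4% lower (2296 genes), so 2 and 3 of 10 transporters are near or somewhat above the background. Every lesion lay above every normal region for 3 transporters (Slc7a1, Slc1a4 and Slc43a1) and below for 4 (Slc38a2, Slc38a3, Slc38a4 and Slc7a2), against 24.2% and 24.0% of all tested genes. The median log2 fold change was -0.03 over the transporters and 0.00 over all tested genes. Scaling by library size alone moved the median of all genes to -0.14, and the share of higher calls from 50.5% to 29%. Under that scaling 2 transporters still passed as higher and 4 as lower, with Slc38a2 added.

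**Figure D1:**
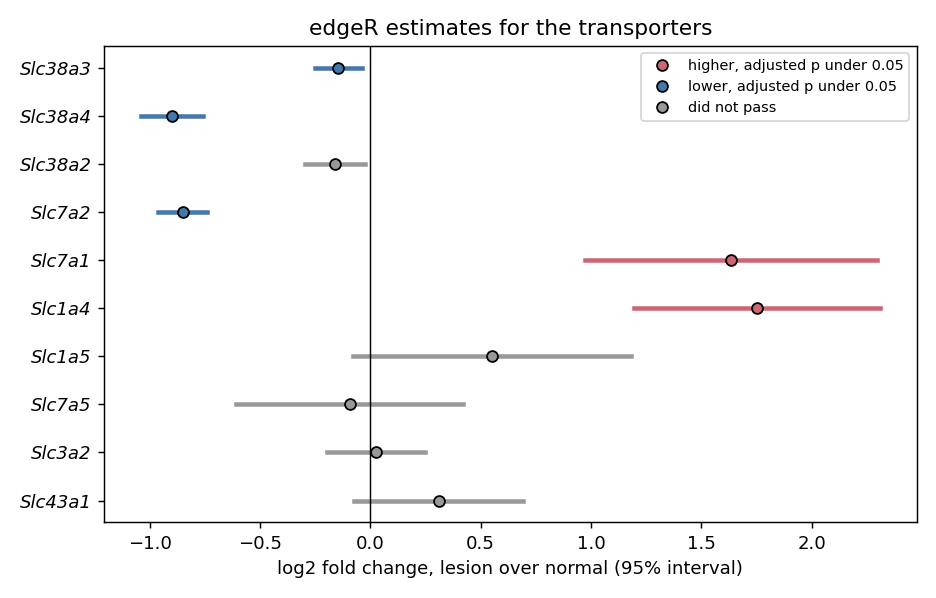
Log2 fold changes of the 10 transporters (x axis, lesion over normal, 3 regions each) from edgeR, with 95% intervals as lines and one gene per row. Slc38a4 and Slc7a2 lie close together at -0.90 and -0.85, Slc7a1 and Slc1a4 lie at 1.64 and 1.75 with wide intervals, and Slc38a3 lies just below 0 at -0.14.

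The Slc38 genes made up most of the transporter mRNA, and within the family Slc38a4 fell far more than Slc38a3. Slc38a4, which encodes the system A carrier SNAT4, was at 1123, 1113 and 1095 CPM in normal regions 1 to 3 and at 552, 564 and 671 CPM in lesions 1 to 3. The groups lay far apart, and lesion 3 was the highest of the lesions. The level fell 1.86-fold, a log2 change of -0.90 (SE 0.0666, 95% interval -1.04 to -0.76, edgeR adjusted p = 4.41e-09), and by 0.99 on the log2 scale without lesion 3. Slc38a3, which encodes the system N glutamine carrier SNAT3, was at 2064, 2098 and 2122 CPM in normal regions and at 1851, 1915 and 1921 CPM in lesions. Its groups did not overlap, but the gap between them was small beside the level. The log2 change was -0.14 (SE 0.0503, 95% interval -0.25 to -0.04, edgeR adjusted p = 0.0298). That call was lost under 8 of 15 other settings, among them leaving out normal 2 (adjusted p = 0.11), normal 3 (0.125), lesion 1 (0.148) or lesion 2 (0.0802). The authors' deposited table gives it a log2 fold change of -0.15 with an adjusted p of 0.0611.

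Slc38a2 encodes SNAT2, the system A carrier known in many cell types for induction by amino acid shortage. It was at 178, 173 and 163 CPM in normal regions and at 158, 159 and 143 CPM in lesions. Every lesion lay below every normal region, by a few CPM at the closest pair. The log2 change was -0.16 (SE 0.065, 95% interval -0.29 to -0.02), with an edgeR adjusted p of 0.0636, which misses the threshold. Slc38a2 and Slc38a4 lie in a cluster on mouse chromosome 15 (GRCm38.p6, chr15:96687392-96699728 and chr15:96994816-97055956), with 295.1 kb and 4 genes between them. Slc38a1, which encodes a further system A carrier and lies 44.0 kb from Slc38a2, was at 9.73 CPM in normal regions and 7.04 CPM in lesions (log2 change -0.46, edgeR adjusted p = 0.0685). Slc38a3 lies on chromosome 9 (chr9:107651154-107668968).

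**Figure D2:**
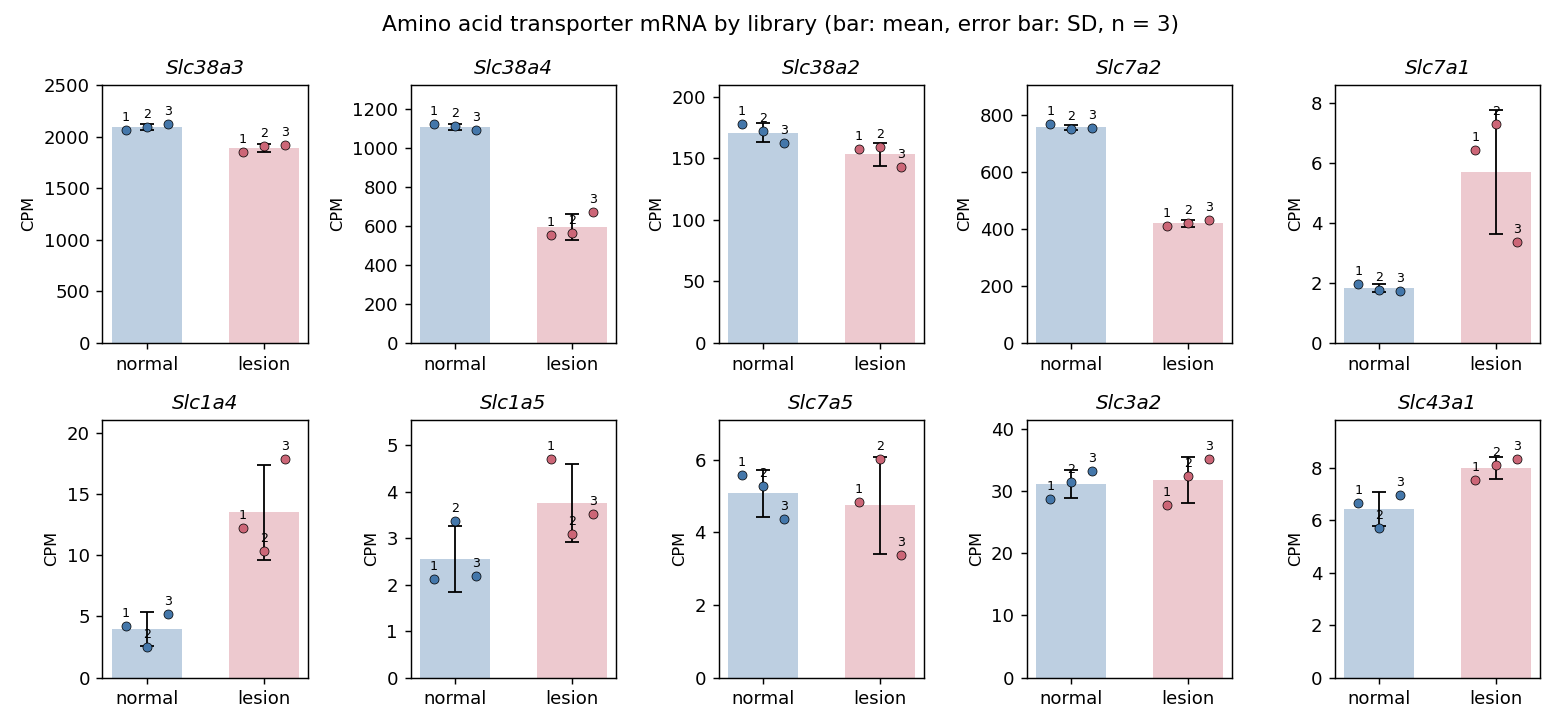
CPM of the 10 transporters (y axis, one panel per gene with its own linear scale from 0), with bars for the mean of 3 regions, error bars for the SD and numbered points for the regions. The Slc38a4 and Slc7a2 lesions lie far below the normal regions, the Slc7a1 and Slc1a4 lesions lie above them, and for Slc7a5 and Slc3a2 the groups overlap.

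The cationic carriers moved in opposite directions. Slc7a2 encodes CAT2, whose liver splice form is known as a low-affinity, high-capacity arginine carrier, and gene-level counts do not separate its splice forms. It was at 768, 752 and 753 CPM in normal regions and at 409, 419 and 432 CPM in lesions. The spread within each group was small beside the gap. The level fell 1.803-fold, a log2 change of -0.85 (SE 0.0538, 95% interval -0.96 to -0.74, edgeR adjusted p = 1.99e-10). The gene lies at chr8:40862341-40922070, and 6.95% of its exon bases overlap an antisense noncoding gene, Gm26584, whose reads could be counted with it because no source states how strand was handled.

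Slc7a1 encodes CAT1, the high-affinity cationic carrier that is known to be low in adult liver. It was at 1.97, 1.76 and 1.74 CPM in normal regions and at 6.41, 7.28 and 3.37 CPM in lesions. All lesions lay above all normal regions, with lesion 3 the nearest to them. The level rose 3.11-fold, a log2 change of 1.64 (SE 0.317, 95% interval 0.97 to 2.30, edgeR adjusted p = 0.000414), and 1.90 on the log2 scale without lesion 3. The estimate rests on 37 reads in the normal regions together and 120 in the lesions. The gene lies at chr5:148327410-148399904.

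On the length-scaled FPKM values, Slc7a2 exceeded Slc7a1 by 360, 393 and 398 times in normal regions and by 58.8, 53.1 and 118 times in lesions. The ratio was lower in every lesion than in every normal region (384 ± 20.7 against 76.7 ± 36.2, SD, n = 3; exact two-sided permutation p = 0.1, the smallest that 3 against 3 regions allow). The FPKM of both genes together fell from 95.9 to 53.8, as Slc7a2 made up nearly all of it in both groups.

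Of the carriers for alanine, serine and cysteine, Slc1a4 rose and Slc1a5 did not pass the test. Slc1a4, which encodes ASCT1, was at 4.23, 2.50 and 5.23 CPM in normal regions and at 12.3, 10.4 and 17.9 CPM in lesions. The lowest lesion was above the highest normal region, and lesion 3 was the highest of all. The level rose 3.36-fold, a log2 change of 1.75 (SE 0.26, 95% interval 1.19 to 2.31, edgeR adjusted p = 0.000101), and 1.498 on the log2 scale without lesion 3. It rests on 81 reads in normal regions and 282 in lesions. The authors' deposited table gives log2 fold changes of 1.76 for Slc1a4 and 1.64 for Slc7a1, with adjusted p-values of 2.15e-07 and 0.000982.

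Slc1a5, which encodes the glutamine exchanger ASCT2, was at 2.12, 3.38 and 2.18 CPM in normal regions and at 4.70, 3.08 and 3.51 CPM in lesions. The groups overlapped, since normal 2 was above lesion 2. The log2 change was 0.55 (SE 0.301, 95% interval -0.08 to 1.183, edgeR adjusted p = 0.162), on 14 to 33 reads per region, so the interval leaves out increases above 1.183, the estimate of 1.75 for Slc1a4 among them, but not smaller ones. In FPKM, the ratio of Slc1a4 to Slc1a5 was 1.40, 0.519 and 1.69 in normal regions and 1.83, 2.36 and 3.57 in lesions (exact two-sided permutation p = 0.1, the smallest possible). Slc1a4 lies at chr11:20302180-20332713 and Slc1a5 at chr7:16781334-16798274.

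The promoters of the pair that rose and of Slc38a4, for contrast, are shown from 250 bases before to 10 bases after the outermost start that RefSeq lists for each gene, on GRCm38.p6 (chr11:20332704-20332963, chr5:148399895-148400154 and chr15:97055947-97056206, all on the minus strand and read 5′ to 3′). Capitals mark a match to TGATGNAA, the core of the element that C/EBP and ATF proteins bind in genes of the amino acid response.
Slc1a4: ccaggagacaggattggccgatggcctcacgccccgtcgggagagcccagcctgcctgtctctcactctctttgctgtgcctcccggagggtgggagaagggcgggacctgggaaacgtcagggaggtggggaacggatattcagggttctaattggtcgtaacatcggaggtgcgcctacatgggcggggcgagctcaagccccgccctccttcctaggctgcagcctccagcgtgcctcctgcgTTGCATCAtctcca
Slc7a1: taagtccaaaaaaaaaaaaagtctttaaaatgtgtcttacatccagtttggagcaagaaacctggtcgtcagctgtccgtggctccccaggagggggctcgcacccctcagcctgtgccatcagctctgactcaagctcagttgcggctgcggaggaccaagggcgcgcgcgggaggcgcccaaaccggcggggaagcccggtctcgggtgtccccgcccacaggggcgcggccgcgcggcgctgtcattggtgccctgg
Slc38a4: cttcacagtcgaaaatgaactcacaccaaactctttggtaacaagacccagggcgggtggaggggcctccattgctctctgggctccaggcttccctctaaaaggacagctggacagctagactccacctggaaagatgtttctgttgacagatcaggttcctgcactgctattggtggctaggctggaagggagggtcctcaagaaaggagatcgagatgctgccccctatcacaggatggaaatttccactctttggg
The match in Slc1a4 is on the opposite strand and spans the listed start, from position -4 to 4. TGATGNAA was searched on both strands of windows that run further past the start than the stretches shown. It occurs in 3.97% of all 32851 such windows, and in 2.31% of the 12710 windows of tested genes. CACGTG, the E-box, occurs in 7.15% of all windows and in 9.795% of those of tested genes. It overlaps none of the TGATGNAA matches shown. Slc7a1 and Slc38a4 hold neither motif in these windows, which says only that these letters are not there. The GC content of the 250 bases before the start was 64.8% for Slc1a4, 62.4% for Slc7a1 and 52.8% for Slc38a4. The median of the same bases over all windows was 52.4%. Of the other transporters with a window (9 windows of 6 genes in all), Slc43a1 held an E-box from position -64 to -59.

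The large neutral amino acid exchanger and its heavy chain did not pass the test. Slc7a5, which encodes LAT1, was at 5.59, 5.29 and 4.36 CPM in normal regions and at 4.84, 6.02 and 3.37 CPM in lesions. The lesions lay on both sides of the normal regions. The log2 change was -0.09 (SE 0.246, 95% interval -0.61 to 0.42, edgeR adjusted p = 0.796) and turned to 0.10 without lesion 3. Slc3a2, which encodes the CD98 heavy chain, was at 28.7, 31.4 and 33.3 CPM in normal regions and at 27.8, 32.3 and 35.1 CPM in lesions. The groups overlapped almost fully. The log2 change was 0.03 (SE 0.107, 95% interval -0.20 to 0.25, edgeR adjusted p = 0.869), and it turned to -0.11 on library size alone. Slc43a1 encodes LAT3, a large neutral amino acid carrier that works without the heavy chain. It was at 6.65, 5.73 and 6.97 CPM in normal regions and at 7.55, 8.12 and 8.34 CPM in lesions. Every lesion lay above every normal region, with a log2 change of 0.31 (SE 0.184, 95% interval -0.07 to 0.69, edgeR adjusted p = 0.198). Slc7a5 lies at chr8:121881146-121907686, Slc3a2 at chr19:8706882-8723369 and Slc43a1 at chr2:84838855-84863586.

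The heavy chain has light chain partners other than LAT1, and of these Slc7a7 rose, beside a Slc3a2 level of 31.1 ± 2.29 CPM in normal regions and 31.7 ± 3.71 CPM in lesions (SD, n = 3). Slc7a7, which encodes the y+LAT1 exchanger, was at FPKM 3.59, 3.61 and 3.85 in normal regions and 6.70, 6.68 and 7.08 in lesions. The lesions were uniformly higher, with a log2 change of 0.89 (SE 0.137, edgeR adjusted p = 4.09e-05). Slc7a8, which encodes LAT2, was at FPKM 4.64, 4.56 and 3.32 in normal regions and 2.94, 2.64 and 4.07 in lesions, and these overlapped (log2 change -0.37, edgeR adjusted p = 0.0957). Slc7a6 stayed below Slc7a5 in every region, at FPKM 0.156 to 0.222 in normal regions and 0.0631 to 0.122 in lesions.

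Slc7a11, which encodes the cystine and glutamate exchanger xCT, was singled out after its values were seen. It had 4, 5 and 6 reads in normal regions and 74, 54 and 894 in lesions. All lesions lay above all normal regions, and lesion 3 held most of the reads. The log2 change was 6.03 (SE 2.29, 95% interval -0.20 to 12.26), with an edgeR adjusted p of 0.118, and 3.58 (SE 0.329, adjusted p = 1.13e-14) without lesion 3. The authors' deposited table gives a log2 fold change of 6.08 with no p-value. In lesion 3 its FPKM of 14.1 exceeded that of the heavy chain. Over all light chains without Slc7a11, the summed FPKM was 9.56 ± 0.737 in normal regions and 11.6 ± 0.613 in lesions, and with it 9.64 ± 0.724 and 17.0 ± 8.19 (SD, n = 3; exact two-sided permutation p = 0.1 for each, the smallest possible). Divided by the FPKM of Slc3a2, the sum without Slc7a11 was 0.921 ± 0.134 in normal regions and 1.10 ± 0.0978 in lesions. The groups overlapped on this ratio (exact two-sided permutation p = 0.3). With Slc7a11 the ratio was 0.929 ± 0.133 and 1.56 ± 0.595 (exact two-sided permutation p = 0.1).

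**Figure D3:**
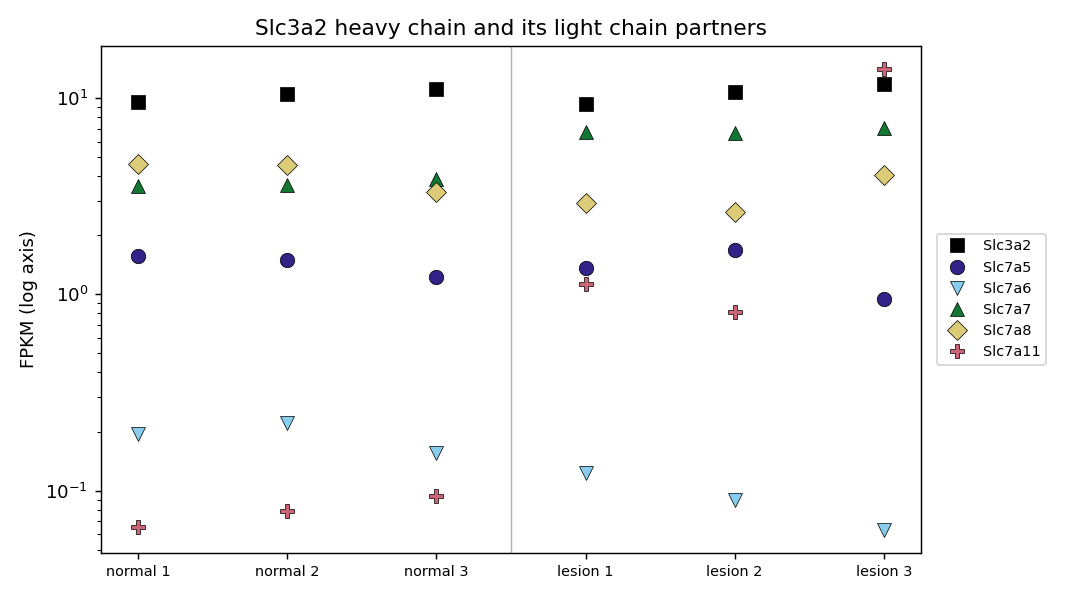
FPKM on a log axis (y) of the heavy chain gene Slc3a2 and 5 light chain genes in each of the 6 regions (x). Slc7a7 is higher in each lesion than in any normal region, and Slc7a11 goes from 0.0649 to 0.0937 in normal regions to 0.810 to 14.1 in lesions.

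Ranked by FPKM, the order in normal regions was Slc38a3 (762 ± 11.4), Slc38a4 (265 ± 3.32), Slc7a2 (95.7 ± 0.99), Slc38a2 (36.4 ± 1.59), Slc3a2, Slc43a1, Slc7a5, Slc1a4, Slc1a5 and Slc7a1, with values after each name as mean FPKM ± SD (n = 3). Neighbours in that order had separate ranges except Slc7a5 with Slc1a4 and Slc1a4 with Slc1a5. In lesions the first 5 kept their order, at 689 ± 14.8 for Slc38a3, 142 ± 16 for Slc38a4 and 53 ± 1.6 for Slc7a2. Slc1a4 moved from rank 8 to rank 6, and its range overlapped that of Slc43a1. Slc1a5, Slc7a5 and Slc7a1 followed below Slc43a1, with overlapping ranges between Slc1a5 and Slc7a5 and between Slc7a5 and Slc7a1.

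The FPKM of all 10 transporters together was 1175 ± 6.83 in normal regions and 936.6 ± 30.1 in lesions (SD, n = 3; exact two-sided permutation p = 0.1, the smallest possible). Slc38a3 made up 64.9 ± 0.604% of it in normal regions and 73.6 ± 1.04% in lesions, and Slc38a4 made up 22.5% and 15.1%. The ratio of Slc38a3 to Slc38a4 was 2.80, 2.88 and 2.96 in normal regions and 5.12, 5.18 and 4.37 in lesions. All 3 lesions lay well above the normal regions. The share of Slc7a2 went from 8.14% to 5.66%, that of Slc1a4 and Slc1a5 together from 0.164% to 0.507%, and the ratio of Slc38a3 to Slc38a2 was 21.0 in normal regions and 21.2 in lesions (exact two-sided permutation p = 0.9). These are shares of mRNA, not of carrier protein or of transport.

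**Figure D4:**
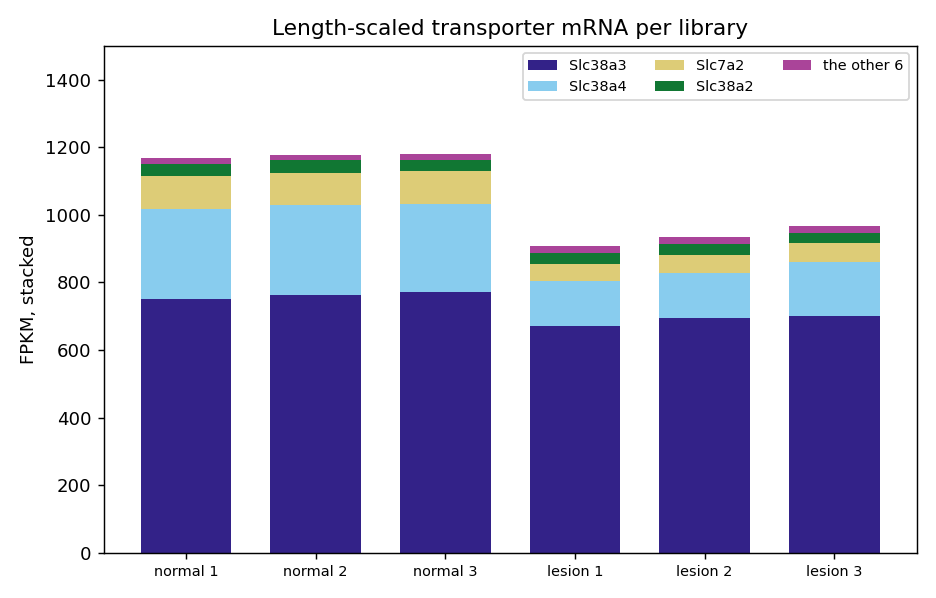
Stacked FPKM of the transporters in each of the 6 regions (y axis from 0), with Slc38a3, Slc38a4, Slc7a2 and Slc38a2 drawn singly and the other 6 together. The stacks average 1175 in normal regions and 936.6 in lesions, and the Slc38a4 and Slc7a2 layers are thinner in all 3 lesions.

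Among 29 other amino acid carriers of the plasma membrane, 12 could be tested, of which 3 rose, 5 fell and 4 did not pass, beside 18.7% higher and 18.4% lower over all tested genes. Slc1a2, the glutamate carrier that perivenous hepatocytes are known to express, had 2099, 2113 and 2181 reads in normal regions and 867, 784 and 794 in lesions. It was lower in every lesion (log2 change -1.43, SE 0.0621, edgeR adjusted p = 7.06e-13). Slc16a10, the aromatic amino acid carrier TAT1, fell by 1.10 on the log2 scale (edgeR adjusted p = 1.45e-09). Slc3a1, the heavy chain of the renal cystine carrier, fell by 1.07 (adjusted p = 3.38e-05), while its light chain Slc7a9 had at most 1 read per region. Slc6a6, the taurine carrier, fell by 0.41 (adjusted p = 3.35e-05) and Slc6a12, the betaine carrier, by 0.29 (adjusted p = 0.0241). Slc6a9, the glycine carrier GlyT1, rose from 102 to 161 CPM (log2 change 0.66, adjusted p = 2.34e-07), and Slc6a13 rose from 123 to 146 CPM (0.25, adjusted p = 0.00379), beside Slc7a7 above. The Slc6a12 call was lost under 9 of 15 other settings, and the Slc6a13 call on library size alone (adjusted p = 0.177).

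Of 9 tested lysosomal carriers, 2 rose and none fell, and 2 of 9 is near the 18.7% called higher over all tested genes. Mfsd12, which takes part in lysosomal cysteine import, rose by 0.55 on the log2 scale (edgeR adjusted p = 0.0253). Slc66a1, listed as Pqlc2, which exports cationic amino acids, rose by 0.50 (adjusted p = 0.0283). Each call was lost under 9 of 15 other settings, and the count of 2 was 0 without normal 2 or normal 3 and 1 without lesion 2 or lesion 3. Of 10 tested mitochondrial carriers, 1 rose and 3 fell, and without lesion 1 or lesion 3 the count that rose was 2. Over all tested genes 18.7% rose and 18.4% fell, so counts of 1 and 3 in 10 are near the background. Slc25a15, which brings ornithine into the mitochondrion for the urea cycle, went from 241 ± 11.8 to 125 ± 11.5 CPM (SD, n = 3; log2 change -0.95, edgeR adjusted p = 2.18e-09). Slc25a13, the aspartate and glutamate carrier citrin, went from 173 to 97.3 CPM (-0.83, adjusted p = 4.58e-09). Slc25a22, a glutamate carrier, fell by 0.33 (adjusted p = 0.000378). Slc25a44, a carrier of branched-chain amino acids, rose by 0.37 (adjusted p = 0.000187).

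Of 24 tested enzymes that act on the carried amino acids, 15 fell, 4 rose and 5 did not pass. Over all tested genes 18.4% fell and 18.7% rose, so the count of 4 is near the background. Asns, among the 4 that rose, is also counted with the amino acid response genes. The median log2 change of the enzymes was -0.41 against 0.00 over all tested genes. Tat, the tyrosine aminotransferase, went from 1279 to 488.5 CPM (log2 change -1.39, edgeR adjusted p = 1.81e-13). Hpd, which acts after Tat in tyrosine breakdown, fell by 1.29 on the log2 scale. Oat, which converts ornithine, fell by 1.44. On the glutamine side, Gls2, a glutaminase of the liver, fell from 289 to 174 CPM (log2 change -0.73, edgeR adjusted p = 9.31e-08). Glul, the glutamine synthetase of perivenous hepatocytes, fell by 0.85 on the log2 scale (adjusted p = 1.29e-09). Arg1, the arginase of the urea cycle, was at 638 ± 7.71 CPM in normal regions and 609.8 ± 125 CPM in lesions (SD, n = 3) and did not pass (log2 change -0.07, adjusted p = 0.765). These last 3 were named after their values were seen. Without normal 1, the count of enzymes that rose was 2 in place of 4.

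Genes of the amino acid response, through which the kinase GCN2 and the factor ATF4 act on carriers and on synthesis of amino acids, rose in 9 of 15 tested cases, with none lower and a median log2 change of 0.63, beside 18.7% higher and 18.4% lower over all tested genes. Asns, the asparagine synthetase, had 52, 60 and 61 reads in normal regions and 200, 190 and 222 in lesions. All lesions lay well above these (log2 change 1.77, SE 0.132, edgeR adjusted p = 2.09e-09). Psat1, of serine synthesis, had 2, 4 and 6 reads against 152, 170 and 91, with lesion 3 the lowest lesion (5.01, adjusted p = 1.46e-08). Atf5, a factor of the same response, had 753, 778 and 869 reads against 2402, 2337 and 1752 (1.39, adjusted p = 1.74e-06). Eif2ak4, which encodes GCN2, rose by 0.63 (adjusted p = 0.000265). Eif2ak3, named beyond the genes with the lowest p, is also among the 9 (0.40, edgeR adjusted p = 0.00677). It encodes a different kinase, PERK, which responds to endoplasmic reticulum stress. Atf4 itself, named after its values were seen, went from 54.6 to 64.4 CPM (0.24, adjusted p = 0.0247), a call lost under 7 of 15 other settings. Ddit3, Trib3, Chac1, Sesn2, Ddit4 and Cebpb did not pass. The count of 9 fell to 5 without normal 1 and to 4 without normal 2. On library size alone 5 genes passed as higher and 1 as lower.

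Of 21 tested genes through which mTORC1 senses amino acids, 5 rose, 3 fell and 13 did not pass, which is near the 18.7% higher and 18.4% lower over all tested genes. Mtor, the kinase, rose by 0.46 (log2, edgeR adjusted p = 3.18e-05). Lars, the leucyl-tRNA synthetase, rose by 0.66 (log2, adjusted p = 3.35e-05). The folliculin partners moved apart, with Fnip2 higher by 0.39 and Fnip1 lower by 0.69. The count of 5 was 3 on library size alone, where the median of all genes is at -0.14.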

How the data were processed

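Per the labels' protocols, about 500 ng of RNA per region was made into libraries with 15 PCR cycles. No molecular identifiers are named, so counting error understates the error. The submitters' processing notes list STAR 2.5.2b, cutadapt 1.18, CASAVA 1.8, DESeq2 1.24.0 and the mm10 build, without roles. The counter, its annotation and its handling of strand are not given in the sources. The authors deposited whole-number counts and FPKM per gene, and a comparison table with a mean normalized count (a signal), log2 fold changes, test scores and p-values.

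Counts were tested with edgeR 4.0.16 (R 4.3.3) on all 6 libraries, after filterByExpr and TMM scaling, with the group as the only term. Standard errors are the absolute log2 fold change over the square root of F. FPKM ratios were tested by exact permutation. DESeq2 1.42.0 and limma 3.58.1 were alternatives. The script was tested on simulated data. The transporters and lists were chosen with earlier results of these data known. All transporters are named, and of each pathway list the passing genes with the lowest p (up to 8 plasma membrane carriers, otherwise 4), with exceptions stated; the rule also covers the marker lists, given as counts and sums, and 1 pathway gene it names is not reported here. Coordinates and promoters are RefSeq's for GRCm38.p6.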

Additional observations from a re-analysis of the deposited data

How the results depend on the processing

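Slc1a4, Slc38a4 and Slc7a2 passed under all 15 other settings, with log2 changes of 1.13 to 1.997, -1.04 to -0.84 and -0.99 to -0.83, and Slc7a1 passed under 14, with 0.50 to 1.90. On log2(FPKM + 0.1) Slc7a1 missed (limma adjusted p = 0.0543), which left 1 transporter called higher. Slc1a5, Slc3a2, Slc43a1 and Slc7a5 passed under none, and Slc38a2 under 2 (library size alone, -0.30, and no count filter, -0.17). Slc3a2 turned negative on library size alone (-0.11), without normal 1 (-0.03) and without lesion 3 (-0.052; the range over left-out regions was -0.052 to 0.12), and Slc7a5 turned positive without lesion 3 (0.10). Library size alone gave 1474 genes called higher and 3615 lower over all genes. With a replicate block, 2293 genes were higher and 2233 lower, and 2 transporters each way, since Slc38a3 missed (edgeR adjusted p = 0.0533). Deviations of same-numbered regions correlated at 0.01, -0.02 and -0.02, under the 0.1 taken as a sign of pairing. Whether regions share an animal is not shown by this. DESeq2 gave Slc38a3 an adjusted p of 0.0624. Normal 2 and 3 and lesions 1 and 2 were the closest pairs, with a chi-square per gene of 1.37 and 1.57, not far above sampling noise, against 3.15 to 11.2 for other pairs of a group. Summing each of these pairs, chosen after seeing the data, left 1607 genes higher, 1595 lower and 2 transporters each way, with 5 in place of 9 amino acid response genes, 2 in place of 4 enzymes and 0 in place of 2 lysosomal carriers higher. Slc7a11 passed under 3 of 14 settings. Of 28 passing genes named from the other lists, Eif2ak3 not counted, 23 passed under every setting, and these checks were added after seeing the data. Depth limits Slc7a1, Slc1a5, Slc7a5 and Slc43a1, with fewer than 60 reads per region.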

Other observations

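Some genes of the lists that did not pass had their highest value in lesion 3. Slc1a1, a glutamate carrier, had 0, 0 and 2 reads in normal regions 1 to 3 and 2, 2 and 22 in lesions 1 to 3, too few to be tested. Sfxn3, which encodes a mitochondrial serine carrier, had 25, 24 and 19 reads in normal regions and 17, 28 and 65 in lesions (log2 change 0.65, edgeR adjusted p = 0.341). Rragd, a Rag GTPase gene, had 5, 17 and 17 reads in normal regions and 56, 71 and 287 in lesions, so that every lesion was above every normal region (3.36, adjusted p = 0.087). Arg1 had 3809, 3808 and 5149 reads in lesions, with lesion 3 apart from the others. These genes were chosen after their values were seen. Slc38a11, a further Slc38 gene also chosen after its values were seen, had 11, 11 and 4 reads in normal regions. It had 2, 2 and 1 in lesions, and its reads were too few for it to be tested.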
